A study of Caenorhabditis elegans with 12 samples.

Results

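Glutathione S-transferases (GSTs) are enzymes that join the tripeptide glutathione to reactive or foreign molecules, and nematodes carry many of them. The genes described here are all those whose symbol in the WBcel235 annotation begins with gst- or gsto- and a number, plus gcs-1, which encodes the catalytic subunit of the enzyme that makes the first intermediate of glutathione. They are 48 protein-coding genes (44 gst-, 3 gsto- and gcs-1) among 46934 gene entries. Of these, 42 had enough counts to be tested, among 16259 genes tested in all. The 6 that were not tested were gst-8, gst-17, gst-18, gst-19, gst-25 and gst-37, each with 0 to 14 counts in every library.

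Whole-body RNA was sequenced from prefertile adult hermaphrodites of Caenorhabditis elegans, 3 libraries for each of 4 genotypes. These were the eat-2(ad1116); dis-3(L75Q) double mutant (strain IJ2290), the dis-3(L75Q) single mutant (VC40130), the eat-2(ad1116) single mutant (IJ173) and wild type (N2). All were grown on the bacterial food OP50 at 20 °C, and the labels describe 3 independent harvests. The dis-3 gene encodes a nuclease that acts with the RNA exosome, and eat-2 encodes part of a pharyngeal acetylcholine receptor, the loss of which slows feeding and is used to model dietary restriction. Each genotype is a single strain, so the effect of an allele and that of other variants in its strain cannot be told apart. The RNA comes from whole animals, in which fewer cells of a type and less RNA per cell cannot be told apart either.

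GSTs are the conjugating step of xenobiotic detoxification: the conjugates they form are pumped out of the cell by ABC transporters. In C. elegans many of the genes respond to oxidative stress and to electrophiles through SKN-1, the transcription factor related to mammalian Nrf2, and gst-4 and gcs-1 are its standard reporter genes. The gsto- genes belong to the omega class, which reduces substrates more than it conjugates them, and gst-42 encodes a zeta class enzyme of tyrosine breakdown.

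The genes were unevenly placed. Chromosome II held 26 of the 48, chromosome V held 9, chromosomes III and IV held 4 each, X held 3 and I held 2. There were 4 clusters of at least 3 members with no gap over 20 kb. On chromosome II, gst-6, gst-7, gst-8 and gst-9 lay within 4879891-4893573, 9 genes from gst-20 to gst-18 within 13608154-13630887, and 9 genes from gst-26 to gst-35 within 15163817-15185389. On chromosome IV, gst-3, gst-2 and gst-4 lay within 10139380-10143099, and gst-4 was 35.7 kb from dis-3, one of the mutated genes. The other, eat-2, lies on chromosome II. It was 536 kb from gst-18 in the second cluster there, and 992 kb from gst-26 and 995 kb from gst-28 in the third.

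The libraries held 31812427 to 32773835 counts each, and levels are given as CPM, counts scaled to a common library size. Values are expected counts shared out among genes that reads fit equally well. Of the members' 556 values above 0, 7 were not whole numbers, in gst-10, gst-17 and gst-18, so few of the members' reads were divided between genes. The libraries differed in their RNA levels of molting genes and of oocyte and eggshell genes, and stage itself was not measured. A stage score, in which the average log2 CPM of oocyte and eggshell genes was subtracted from the average for molting genes, was 0.826 ± 0.323 in double mutant worms, 1.08 ± 1.53 in dis-3(L75Q) worms, 0.999 ± 1.74 in eat-2(ad1116) worms and -1.69 ± 1.93 in wild-type worms (SD, n = 3 each). Replicate 3 of dis-3(L75Q) (-0.672), replicate 1 of eat-2(ad1116) (-1.01) and replicate 2 of wild type (0.485) lay apart from the other 2 of their genotype. Results are therefore also given without these 3 libraries.

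A few genes supplied most of the family's RNA. Per kilobase of exon, averaged over the 12 libraries, gst-10 had 165 CPM, gst-27 had 151, gst-1 had 149, gst-13 had 105 and gst-7 had 103. These 5 made up 47.4% of the summed CPM of the 48 genes, and gcs-1, a longer gene at 69.4 CPM per kilobase, made up 15.4%. The lowest tested member, gst-32, had 0.334 CPM per kilobase. The order among gst-10, gst-27 and gst-1 depended on genotype: gst-10 led in dis-3(L75Q) worms and was below the other 2 in double mutant and eat-2(ad1116) worms.

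**Figure D1:**
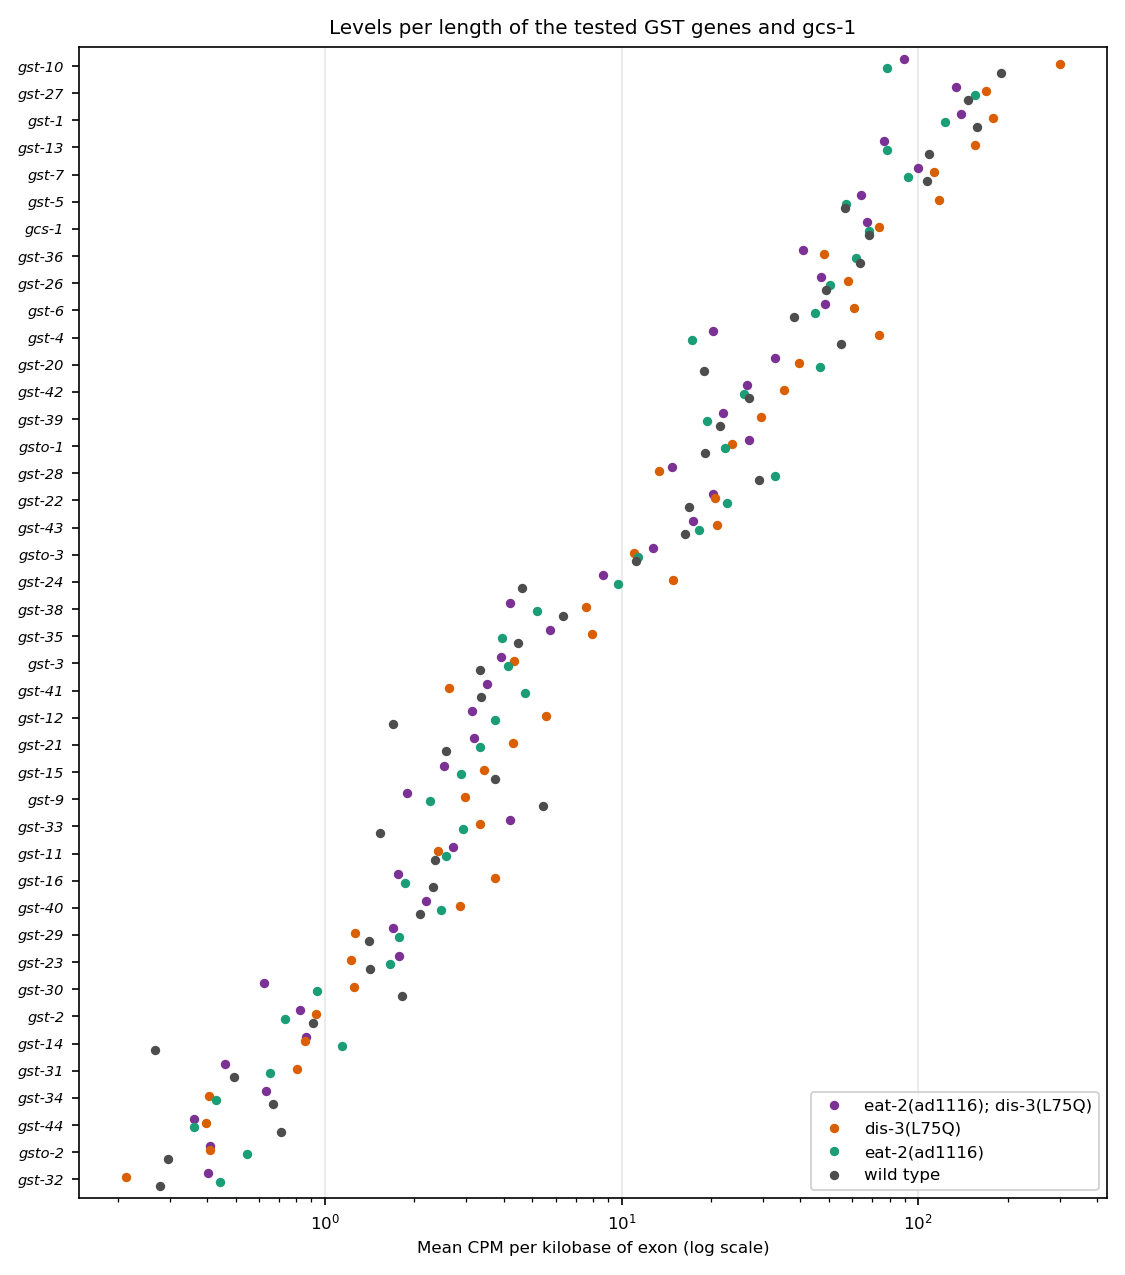
Mean CPM per kilobase of exon (log axis) for each of the 42 tested genes, 1 point per genotype (3 libraries each), sorted by the mean over the 12 libraries. Levels span gst-10 at 165 to gst-32 at 0.334 CPM per kilobase, and gst-10, gst-4 and gst-28 have pairs of genotypes well apart.

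The summed CPM of all 48 genes was 924.5, 932.2 and 861.5 in double mutant worms, 1448, 1399 and 1146 in dis-3(L75Q) worms, 751.1, 1006 and 1034 in eat-2(ad1116) worms and 1045, 1122 and 984.1 in wild-type worms. The dis-3(L75Q) libraries were all above those of the other genotypes, and the double mutant libraries were all below those of wild type. The lowest eat-2(ad1116) and the lowest dis-3(L75Q) libraries were the 2 that lay apart on the stage score.

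In eat-2(ad1116) worms gst-4, gst-10 and gst-1 fell and no member rose. These were 3 of 42 tested members (7.14%), all lower, beside 6.21% of all tested genes called in either direction and 2.12% called lower (edgeR quasi-likelihood F test, Benjamini-Hochberg adjusted p under 0.05 over all 16259 genes, as in all tests of genes below). Without the first eat-2(ad1116) library alone 13 members were called, 7 higher and 6 lower, while calls among all genes numbered 6163, beside 1009 with all libraries. gst-33 was then called higher, as it was under DESeq2, with no scaling, with a stricter filter and without the second wild-type library. The median log2 fold change was 0.06 over the members and -0.01 over all genes with all 12 libraries, -0.29 and 0.00 with the stage score as a covariate, and 0.32 and 0.05 without the 3 libraries that lay apart.

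The SKN-1 reporter gene gst-4 (chromosome IV 10142225-10143099) had 12.9, 11.5 and 13.6 CPM in eat-2(ad1116) worms and 39.3, 41 and 39.9 CPM in wild-type worms. The groups were far apart, and the first eat-2(ad1116) library, which lay apart on the stage score, was like the other 2. The log2 fold change was -1.66 ± 0.14 (SE), a 3.16-fold lower level (edgeR adjusted p = 0.0001). The same strain difference was seen where both groups carry dis-3(L75Q): 18, 14.2 and 12.5 CPM in double mutant worms and 55.7, 54.6 and 51.0 CPM in dis-3(L75Q) worms, a 3.61-fold lower level (log2 fold change -1.85 ± 0.14, edgeR adjusted p = 8.8e-05). The 2 differences share no library, and their difference did not pass the test (interaction -0.19 ± 0.19 on the log2 scale, edgeR adjusted p = 0.6).

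The annotated span of dhs-12, a short-chain dehydrogenase gene on the same strand, overlaps that of gst-4 by 645 bases, and exons were not compared. dhs-12 was lower by less in eat-2(ad1116) than in wild-type worms, with a log2 fold change of -0.37 ± 0.10 (edgeR adjusted p = 0.057). Its log2 fold change between double mutant and dis-3(L75Q) worms was -0.27 (edgeR adjusted p = 0.37). The neighbours gst-2, 163 bases away on the other strand, and gst-3 passed no test in the fit of all 12 libraries by genotype. When the 3 libraries that lay apart were left out, gst-3 passed for the interaction. It then also differed from wild type in eat-2(ad1116) worms and in dis-3(L75Q) worms.

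gst-10 (chromosome V 2561690-2564645), a GST known to conjugate 4-hydroxynonenal, a product of lipid peroxidation, had the highest level per length of the family and moved with gst-4. It had 48.1, 61.1 and 60.2 CPM in eat-2(ad1116) worms and 130, 157 and 123 CPM in wild-type worms. No library of one group came near the other, and the level was 2.42-fold lower (log2 fold change -1.27 ± 0.14, edgeR adjusted p = 0.00071). With dis-3(L75Q) in both groups it had 69.3, 65.7 and 57.7 CPM in double mutant worms and 237, 223 and 190 CPM in dis-3(L75Q) worms. This was 3.37-fold lower in the double mutant (log2 fold change -1.75 ± 0.14, edgeR adjusted p = 0.00014). The interaction was -0.48 ± 0.19 (edgeR unadjusted p = 0.029, adjusted p = 0.52). It was called without the first eat-2(ad1116) library and without the 3 libraries that lay apart. Within genotypes gst-10 followed the stage score, with its lowest dis-3(L75Q) and eat-2(ad1116) values and its highest wild-type value in the 3 libraries that lay apart. The same held for gst-4 in dis-3(L75Q) and wild-type worms, but not in eat-2(ad1116) worms. Without the 3 libraries the log2 fold change of gst-10 was -1.06 in eat-2(ad1116) against wild-type worms (edgeR adjusted p = 4.6e-06) and -1.89 in double mutant against dis-3(L75Q) worms (edgeR adjusted p = 4e-07).

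gst-1 (chromosome III 9059331-9060181) fell by less. It had 98.2, 88.9 and 89 CPM in eat-2(ad1116) worms and 122, 120 and 114 CPM in wild-type worms, groups that did not overlap. The log2 fold change was -0.36 ± 0.07, a 1.29-fold lower level (edgeR adjusted p = 0.017). Between double mutant worms, at 106, 105 and 101 CPM, and dis-3(L75Q) worms, at 137, 129 and 133 CPM, it was again -0.36 ± 0.07 (edgeR adjusted p = 0.042). Both calls of gst-1 were sensitive to the analysis, with adjusted p up to 0.2 and 0.34 under the alternatives tried.

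**Figure D2:**
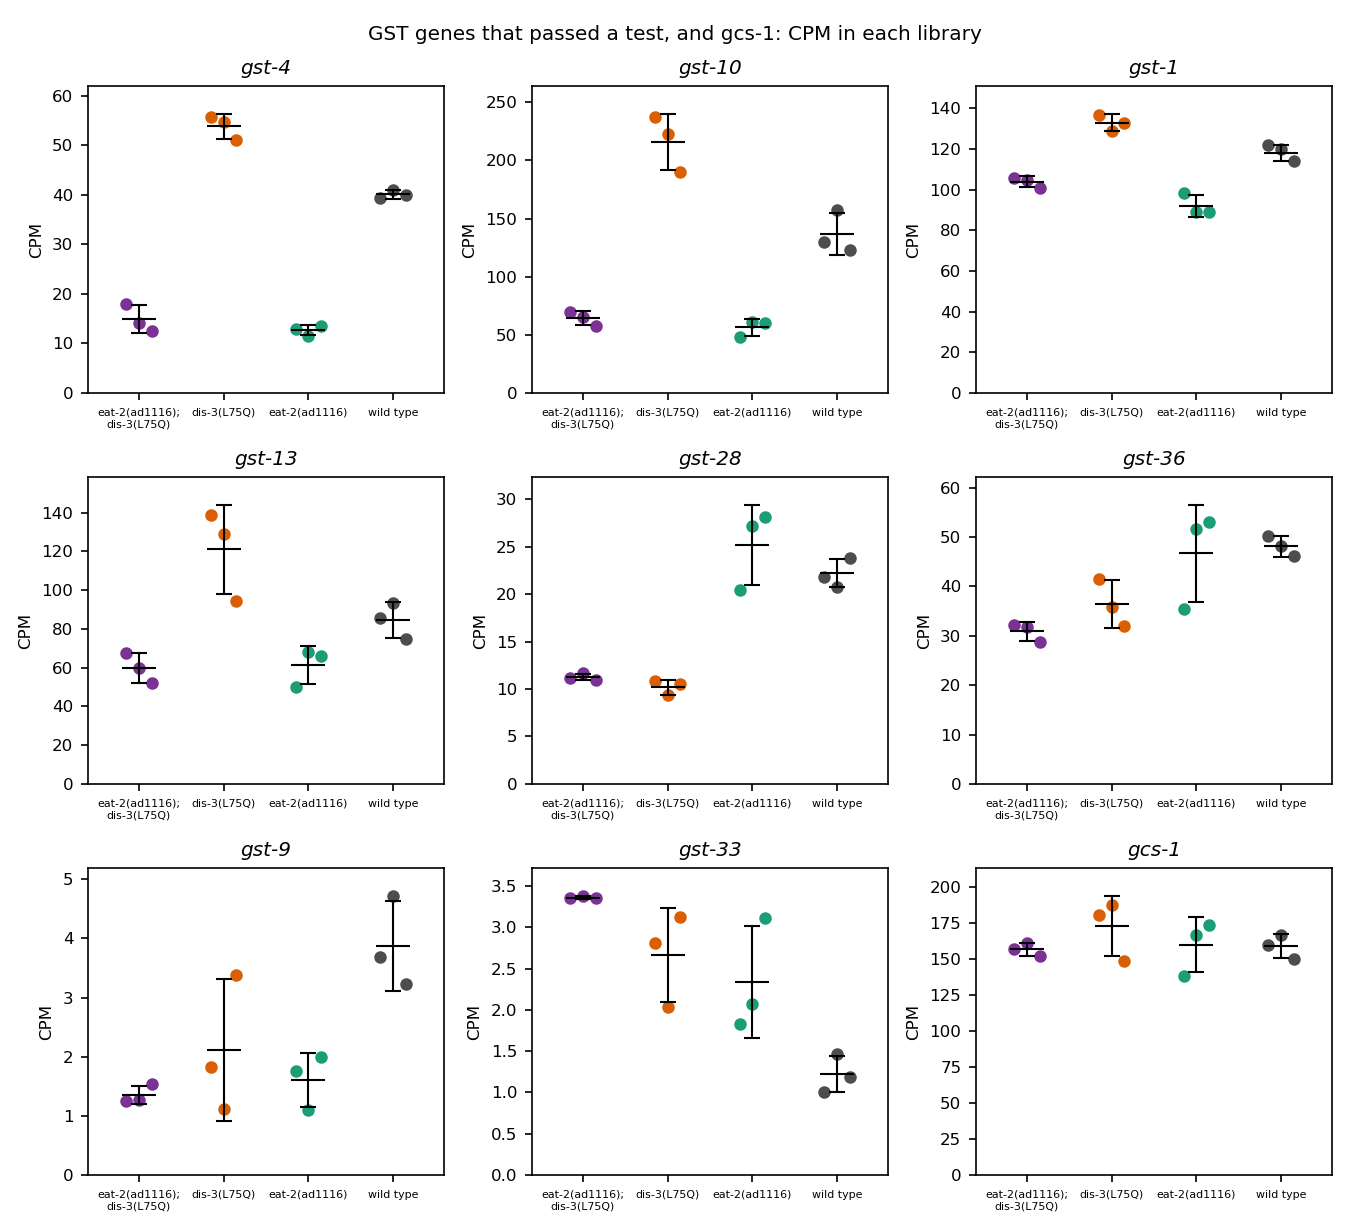
CPM in each of the 12 libraries (points) for the 8 members that passed a test in at least 1 comparison and for gcs-1, with the mean and SD of each genotype (horizontal bar and whiskers, n = 3); each axis starts at 0. gst-4 and gst-10 are lower in both genotypes with eat-2(ad1116), gst-28 is lower in both with dis-3(L75Q), and gcs-1 overlaps across genotypes.

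Between double mutant and dis-3(L75Q) worms, 4 of 42 members fell in the double mutant (9.52%) and none rose, beside 1.24% of all genes called in either direction and 0.695% called lower. The fourth, after gst-4, gst-10 and gst-1, was gst-13 (chromosome II 9231457-9232344). It had 67.5, 60.0 and 51.9 CPM in double mutant worms and 139, 129 and 94.6 CPM in dis-3(L75Q) worms. The groups did not overlap, and the level was 2.02-fold lower (log2 fold change -1.02 ± 0.17, edgeR adjusted p = 0.017). In the wild-type background gst-13 did not pass the test: 49.9, 68.1 and 65.9 CPM in eat-2(ad1116) worms and 85.5, 93.4 and 74.9 CPM in wild-type worms, groups that again did not overlap (log2 fold change -0.47 ± 0.17, edgeR adjusted p = 0.12). Its call was lost when any 1 of 4 libraries was left out (replicate 1 or 2 of dis-3(L75Q), replicate 2 or 3 of the double mutant), with adjusted p up to 0.1.

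Most members leaned lower in this comparison. The log2 fold change was negative for 31 of the 42 and its median was -0.28, against 0.05 over all genes. Groups did not overlap for 13 members that were lower and 3 that were higher in double mutant worms, against 11.0% of all genes lower and 11.2% higher. At an unadjusted p under 0.05 there were 9 members, all lower (10.4% of all genes, either direction). dis-3(L75Q) worms also had the higher summed level of intestinal marker genes, 7390 to 7500 CPM in double mutant worms and 7840 to 9590 CPM in dis-3(L75Q) worms over 19 genes, all detected, and 0 of the 19 were called (3 at an unadjusted p under 0.05, edgeR). The part of intestinal RNA in the members' difference was not tested.

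In the fit of all 12 libraries by genotype a single member, gst-28, was called lower with dis-3(L75Q), in both backgrounds. This was 1 of 42 members in each (2.38%), beside 0.56% of all genes called against wild type (0.24% lower) and 0.351% of all genes called between double mutant and eat-2(ad1116) worms (0.197% lower). gst-28 lies at chromosome II 15166194-15167577, on another chromosome than dis-3, between gst-27, 462 bases away, and gst-29, 960 bases away. It had 10.8, 9.33 and 10.5 CPM in dis-3(L75Q) worms and 21.8, 20.8 and 23.8 CPM in wild-type worms. All 3 libraries with the allele were below all 3 without it, and the level was 2.17-fold lower (log2 fold change -1.12 ± 0.14, edgeR adjusted p = 0.0045). With eat-2(ad1116) in both groups it had 11.2, 11.7 and 11.0 CPM in double mutant worms and 20.4, 27.2 and 28.1 CPM in eat-2(ad1116) worms. This difference was 2.23-fold (log2 fold change -1.16 ± 0.14, edgeR adjusted p = 0.0046), and the interaction was -0.04 ± 0.20 (edgeR adjusted p = 0.92).

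The neighbour gst-27 (chromosome II 15164890-15165731) did not share the pattern of gst-28. It had 100, 99.2 and 99.5 CPM in double mutant worms, 139, 135 and 102 CPM in dis-3(L75Q) worms, 83.3, 129 and 133 CPM in eat-2(ad1116) worms and 112, 117 and 99.0 CPM in wild-type worms. The groups with dis-3(L75Q) overlapped those without it, and gst-27 passed no test in the fit of all 12 libraries by genotype (log2 fold change 0.19 ± 0.17 in dis-3(L75Q) against wild-type worms, edgeR adjusted p = 0.48). It was called in double mutant against wild-type worms with the stage score as a covariate, and in the other comparisons without the 3 libraries that lay apart. gst-28 was called in 21 of 22 alternatives in each background; the fit of just the 6 libraries compared gave adjusted p = 0.054 against wild type and 0.056 against eat-2(ad1116), with log2 fold changes between -1.32 and -1.03.

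**Figure D3:**
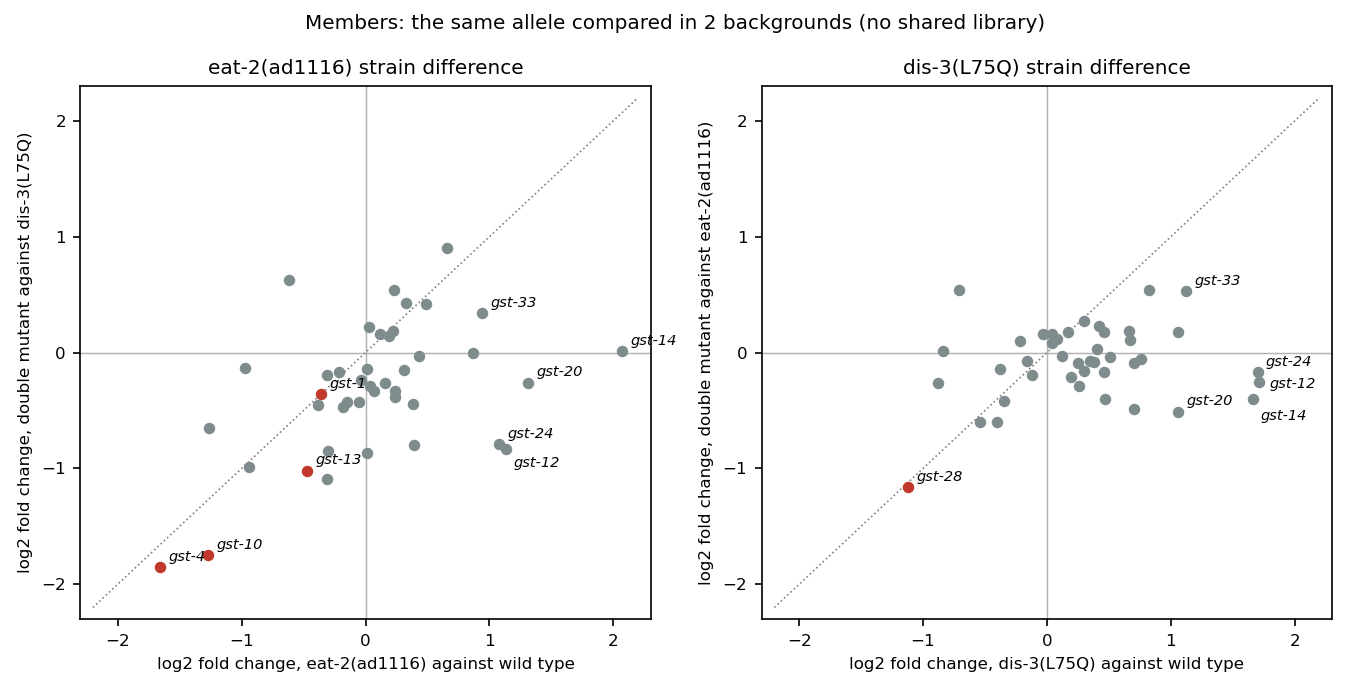
Log2 fold changes of the 42 tested members for the same allele in 2 backgrounds, which share no library (left: the strain difference of eat-2(ad1116), right: that of dis-3(L75Q); dotted line: equal values; red: called in either background). gst-4, gst-10 and gst-1 on the left and gst-28 on the right lie near the line, while gst-12, gst-14, gst-20 and gst-24 are above 1 against wild type and between -0.83 and 0.01 in the other background.

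Other members tended to be higher in dis-3(L75Q) than in wild-type worms without passing the test. The log2 fold change was positive for 30 of the 42, with a median of 0.30 against 0.02 over all genes. At an unadjusted p under 0.05 there were 16 members, 13 higher and 3 lower (16.8% of all genes, either direction). The groups did not overlap for 15 members that were higher, beside 9.38% of all genes, and for 2 that were lower, beside 9.52%. Among them gst-10 had a log2 fold change of 0.66 ± 0.13 (edgeR adjusted p = 0.069) and gst-4 one of 0.42 ± 0.13 (edgeR adjusted p = 0.27).

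The same lean was not seen with eat-2(ad1116) in both groups. There the log2 fold change was positive for 17 members and negative for 25, with a median of -0.07 against 0.00 over all genes. For the allele in the 2 backgrounds, 21 of 42 members (50%) had the same sign, beside 47.6% of all genes, and Pearson's r across the 42 members was 0.19, beside 0.30 across all genes. The eat-2(ad1116) strain difference had the same sign in both backgrounds for 26 of 42 members (61.9%), beside 55.1% of all genes, with r of 0.46 across members and 0.37 across all genes. These r are descriptions across genes, which are not independent replicates, and each pair of comparisons shares no library.

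In double mutant against wild-type worms 6 of 42 members were called (14.3%), 5 lower and 1 higher, beside 4.28% of all genes called in either direction, 1.74% lower and 2.54% higher. gst-4 was 2.69-fold lower (log2 fold change -1.43 ± 0.13, edgeR adjusted p = 0.00026), gst-10 2.13-fold lower (-1.09 ± 0.14, edgeR adjusted p = 0.0015) and gst-28 1.96-fold lower (-0.97 ± 0.14, edgeR adjusted p = 0.0037). The double mutant thus had the low gst-4 and gst-10 levels of eat-2(ad1116) worms and the low gst-28 level of dis-3(L75Q) worms. This comparison shares its libraries with those above and adds no separate evidence for these 3 genes.

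The other 3 passed in no single mutant in the fit of all 12 libraries by genotype. gst-33 (chromosome V 3467451-3468562) rose: it had 3.35, 3.38 and 3.35 CPM in double mutant worms and 1.01, 1.46 and 1.19 CPM in wild-type worms, a 2.75-fold higher level (log2 fold change 1.46 ± 0.26, edgeR adjusted p = 0.011). Both single mutants lay between, at 2.81, 2.03 and 3.13 CPM in dis-3(L75Q) worms and 1.83, 2.07 and 3.11 CPM in eat-2(ad1116) worms. All 9 mutant libraries were above all 3 wild-type libraries. The single mutants' log2 fold changes against wild type were 1.12 ± 0.26 (dis-3(L75Q), edgeR adjusted p = 0.12) and 0.94 ± 0.26 (eat-2(ad1116), edgeR adjusted p = 0.056). Without the first wild-type library the double mutant's adjusted p was 0.057.

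gst-36 (chromosome X 9861646-9862960) had 32.2, 31.8 and 28.7 CPM in double mutant worms and 50.2, 48.1 and 46.1 CPM in wild-type worms, a 1.56-fold lower level (log2 fold change -0.64 ± 0.15, edgeR adjusted p = 0.045). In dis-3(L75Q) worms it had 41.5, 35.8 and 32 CPM, all below wild type (log2 fold change -0.40 ± 0.15, edgeR adjusted p = 0.29). In eat-2(ad1116) worms it had 35.4, 51.6 and 53.1 CPM, which overlapped wild type. All double mutant values were below these (log2 fold change -0.60 ± 0.15, edgeR adjusted p = 0.28). gst-36 was called in that comparison with DESeq2, with the stage score as a covariate and without the first eat-2(ad1116) library. Without the 3 libraries that lay apart it was called there and in dis-3(L75Q) against wild-type worms. scav-5, a scavenger receptor gene, overlaps it by 93 bases on the other strand and had a log2 fold change of 0.08 ± 0.20 in double mutant against wild-type worms (edgeR adjusted p = 0.83).

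gst-9 (chromosome II 4891585-4893573) was a low gene, at 1.25, 1.27 and 1.53 CPM in double mutant worms and 3.68, 4.72 and 3.23 CPM in wild-type worms. The groups did not overlap, and the level was 2.87-fold lower (log2 fold change -1.52 ± 0.37, edgeR adjusted p = 0.047). It had 1.82, 1.11 and 3.39 CPM in dis-3(L75Q) worms and 1.75, 1.1 and 1.99 CPM in eat-2(ad1116) worms. The span of gst-9 holds msp-33, a major sperm protein gene on the other strand, which had a log2 fold change of -0.66 ± 0.50 in double mutant against wild-type worms (edgeR adjusted p = 0.43). Whether strand was used in counting is not given here, and the part of msp-33 reads in the gst-9 values was not tested. The calls of gst-36 and gst-9 were lost under 10 and 11 of the 22 alternatives tried, with adjusted p up to 0.17 for each.

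gcs-1 (chromosome II 9035562-9038301), the other SKN-1 reporter gene, did not follow gst-4 in the fit of all 12 libraries by genotype. It had 157, 161 and 152 CPM in double mutant worms, 181, 188 and 149 CPM in dis-3(L75Q) worms, 138, 167 and 174 CPM in eat-2(ad1116) worms and 160, 167 and 150 CPM in wild-type worms. The 4 groups overlapped. Its log2 fold change was 0.01 ± 0.11 in eat-2(ad1116) against wild-type worms (edgeR adjusted p = 0.97). It was -0.14 ± 0.11 in double mutant against dis-3(L75Q) worms (edgeR adjusted p = 0.76), where gst-4 was over 3-fold lower. When the 3 libraries that lay apart were left out, gcs-1 was lower in the double mutant than in dis-3(L75Q) worms, as gst-4 was. It then also passed for the interaction and between the dis-3(L75Q) and wild-type groups. gst-7 (chromosome II 4882062-4883358), 1 of the 5 highest members per length, passed no test in the fit of all 12 libraries either. In eat-2(ad1116) against wild-type worms gst-7 was called without the first eat-2(ad1116) library and without the 3 libraries that lay apart. It had 65.1, 79.6 and 79.2 CPM in double mutant worms, 86.9, 82.8 and 82.0 CPM in dis-3(L75Q) worms, 82.8, 62.8 and 60.8 CPM in eat-2(ad1116) worms and 82.9, 69.2 and 86.0 CPM in wild-type worms.

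The omega class genes passed no test in the fit of all 12 libraries by genotype. Without the 3 libraries that lay apart, gsto-1 was called in each mutant against wild type and for the interaction. gsto-3 was then called for the interaction. gsto-1 averaged 21.7 CPM in double mutant worms, 19 in dis-3(L75Q) worms, 18 in eat-2(ad1116) worms and 15.4 in wild-type worms, with overlapping groups. gsto-3 averaged 11.9, 10.2, 10.6 and 10.4 CPM in double mutant, dis-3(L75Q), eat-2(ad1116) and wild-type worms. gsto-2 was below 1 CPM on average in every genotype. The zeta class gene gst-42 averaged 26.8 CPM in double mutant worms, 36 in dis-3(L75Q) worms, 26.3 in eat-2(ad1116) worms and 27.2 in wild-type worms. It likewise passed no test in the fit of all 12 libraries by genotype. With the stage score as a covariate it was called in eat-2(ad1116) and in double mutant against wild-type worms. Without the 3 libraries that lay apart it was called in both single mutants against wild type, in double mutant against dis-3(L75Q) worms and for the interaction.

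No member had an eat-2(ad1116) difference that changed with dis-3(L75Q) beyond the test: the interaction was called for 0 of 42 members, beside 0.0615% of all genes (edgeR). DESeq2 and limma-voom also called 0, and at an unadjusted p under 0.05 there were 6 members in edgeR, all negative (7.3% of all genes, either direction). Without the first eat-2(ad1116) library 7 members were called, gst-10 among them and all negative, together with 2215 genes in all. The 6 at an unadjusted p under 0.05 include gst-12, gst-20 and gst-24, neighbours in the second chromosome II cluster, which are described next because their values followed the stage score; they were chosen after their values were seen.

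gst-24 had 6.37, 7.06 and 5.71 CPM in double mutant worms, 13, 15.2 and 4.86 CPM in dis-3(L75Q) worms, 1.97, 9.56 and 10.1 CPM in eat-2(ad1116) worms and 2.73, 4.24 and 3.26 CPM in wild-type worms. The low dis-3(L75Q) and eat-2(ad1116) values and the highest wild-type value were those of the 3 libraries that lay apart. gst-20 had 25.6, 30.8 and 24.3 CPM in double mutant worms, 37.4, 40.1 and 19.3 CPM in dis-3(L75Q) worms, 11.3, 52.0 and 51.3 CPM in eat-2(ad1116) worms and 15, 15.7 and 15.7 CPM in wild-type worms. Its spread within the eat-2(ad1116) genotype was larger than any difference between genotype means. gst-12 had the same pattern at 0.983 to 6.52 CPM.

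**Figure D4:**
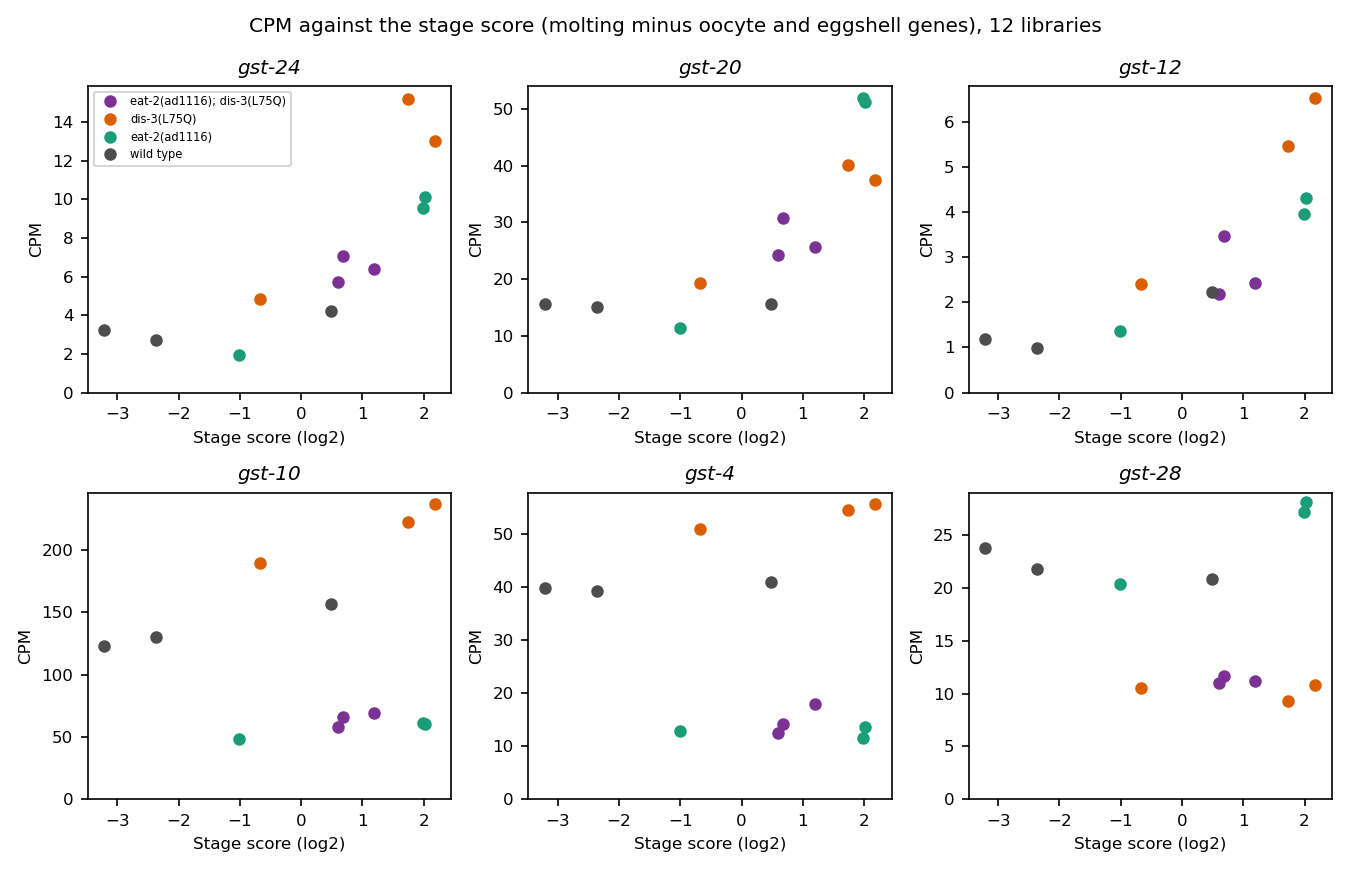
CPM (axis from 0) against the stage score (molting genes less oocyte and eggshell genes, log2) in the 12 libraries, coloured by genotype, for 6 members. gst-24, gst-20 and gst-12 have their highest dis-3(L75Q) and eat-2(ad1116) values at high scores, while gst-4 and gst-28 separate by genotype at any score.

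In all, 17 of the 42 members had, within their genotypes, their lowest dis-3(L75Q) value in replicate 3, their lowest eat-2(ad1116) value in replicate 1 and their highest wild-type value in replicate 2, beside 23.1% of all tested genes. gst-10, gst-13, gst-27 and gcs-1 were among them. The opposite order was held by 2 members, gst-30 and gst-32, beside 20.7% of all genes. The mean stage score was 2.52 higher in double mutant, 2.78 higher in dis-3(L75Q) and 2.69 higher in eat-2(ad1116) than in wild-type worms (two-sided exact permutation p = 0.1, 0.2 and 0.2, with 0.1 the smallest that 3 against 3 libraries allow).

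Leaving out those 3 libraries raised the counts for members and for all genes alike. In eat-2(ad1116) against wild-type worms 23 of 42 members were then called, 15 higher and 8 lower, beside 58.6% of all genes, 29.9% higher and 28.7% lower. Of the members tested in double mutant against dis-3(L75Q) worms 20 were called, all lower, beside 25% of all genes in either direction and 12.7% lower. For dis-3(L75Q) against wild-type worms there were 27, 22 higher and 5 lower, beside 51.6%, 26.9% higher and 24.6% lower. The double mutant had 9 against eat-2(ad1116), beside 25.2%, and 21 against wild type, beside 47.0%, and the interaction had 21, beside 53.0%. These fits rest on 2 libraries in 3 of the genotypes. In them the wild-type scores, -2.36 and -3.21, lie below those of every mutant library, 0.599 or above, and both dis-3(L75Q) scores (1.74 and 2.18) lie above all 3 double mutant scores. Stage and genotype cannot be told apart in these comparisons without the 3 libraries. gst-4, gst-10 and gst-28 were called with and without the 3 libraries in each comparison named above.

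DESeq2, a test that called more genes in general, called 6 members in eat-2(ad1116) against wild-type worms (14.1% of all genes), 4 in double mutant against dis-3(L75Q) worms (3.74%), 6 in dis-3(L75Q) against wild-type worms (2.08%), 2 in double mutant against eat-2(ad1116) worms (1.07%) and 8 in double mutant against wild-type worms (11.1%), while its interaction calls took in 0.321% of all genes. With the stage score as a covariate in edgeR the members called were 5, 6, 1, 2 and 8 in the same comparisons, beside 5.01%, 4.5%, 0.461%, 1.06% and 4.18% of all genes, and 0 for the interaction, beside 0.0554%.

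**Figure D5:**
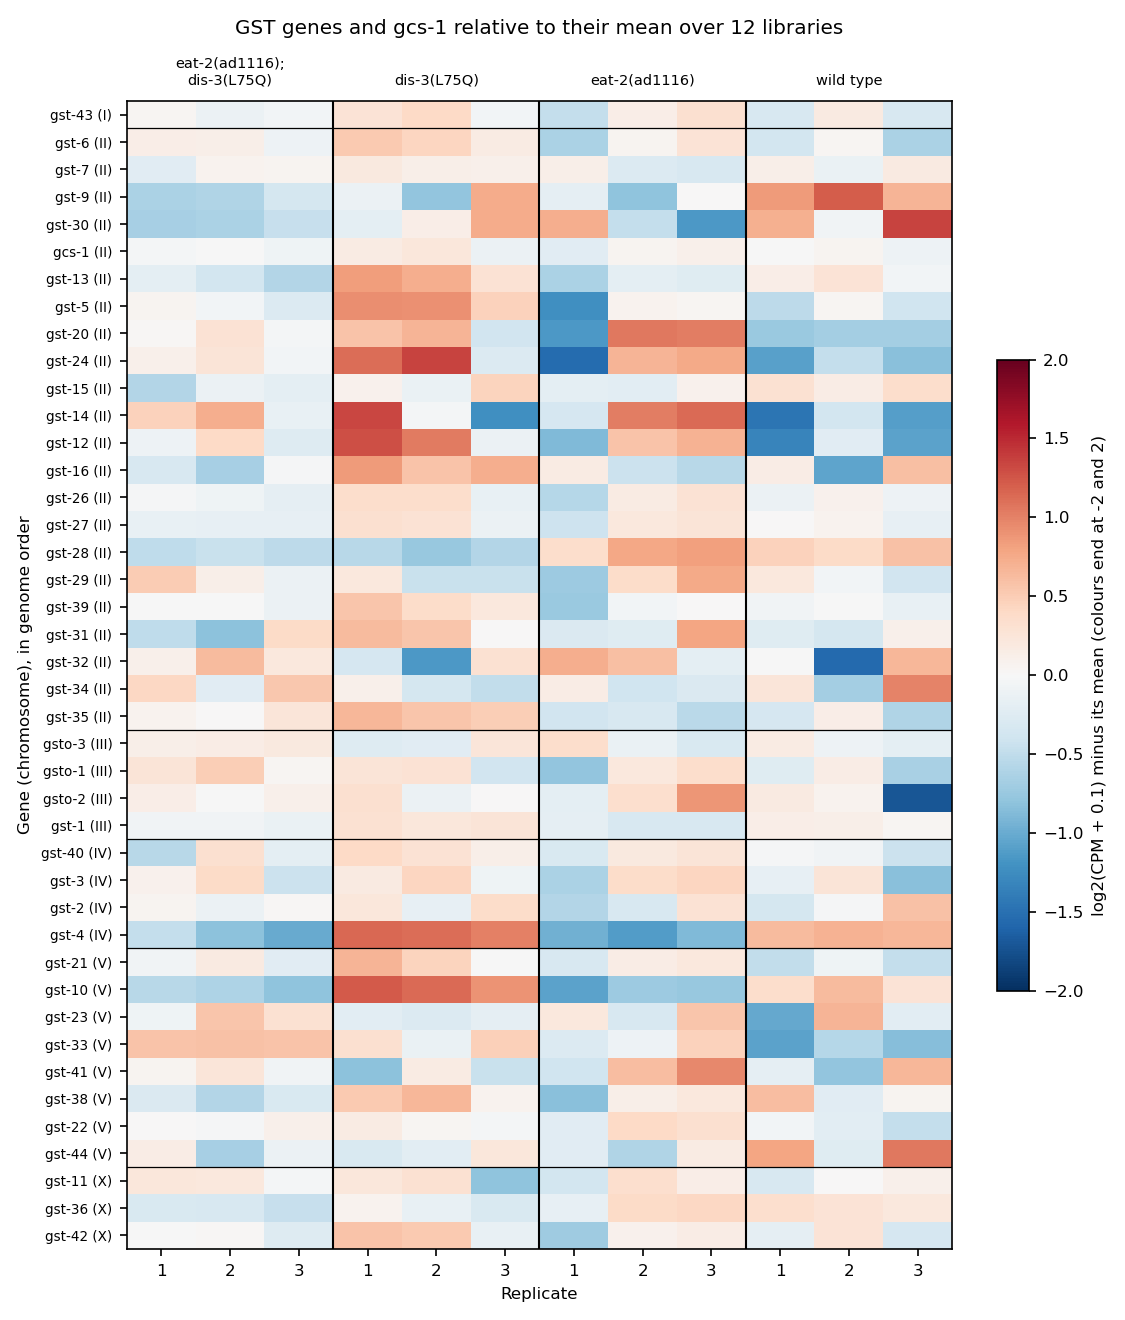
Each tested member's log2(CPM + 0.1) minus its mean over the 12 libraries, in genome order (rows; chromosome in parentheses) and by library (columns, replicates 1 to 3 of each genotype); red is above and blue below the gene's mean. gst-4 and gst-10 are blue in all 6 libraries with eat-2(ad1116), gst-28 is blue in all 6 with dis-3(L75Q), and gst-20, gst-24 and gst-12 are low in the first eat-2(ad1116) library.

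The wider glutathione pathway was compared through lists outside the family. Of 23 genes of glutathione synthesis, reduction and use (glutathione synthetase gss-1, the reductase gsr-1, peroxidases and glutaredoxins among them), 0 were called in any comparison. At an unadjusted p under 0.05 there were 5 in eat-2(ad1116) against wild-type worms, 5 in double mutant against dis-3(L75Q) worms, 1 in dis-3(L75Q) against wild-type worms, 1 in double mutant against eat-2(ad1116) worms and 5 in double mutant against wild-type worms (edgeR). Their summed CPM was 843 to 892 in double mutant, 900 to 944 in dis-3(L75Q) worms, 816 to 891 in eat-2(ad1116) and 901 to 924 in wild-type worms, lower in every library with eat-2(ad1116) than in every library without it.

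Cysteine, the amino acid that limits glutathione synthesis, is supplied by transsulfuration. Of 19 tested genes of this supply, 1 fell in eat-2(ad1116) against wild-type worms and 1 in double mutant against dis-3(L75Q) worms, in both cases cth-2, which encodes a cystathionine gamma-lyase. It averaged 153 ± 8.6 CPM in double mutant worms, 242 ± 5.4 in dis-3(L75Q) worms, 149 ± 9.8 in eat-2(ad1116) worms and 247 ± 22 in wild-type worms (SD, n = 3 each). The libraries with and without eat-2(ad1116) did not overlap, as for gst-4 and gst-10. The log2 fold change was -0.73 ± 0.09 in eat-2(ad1116) against wild-type worms (edgeR adjusted p = 0.0014) and -0.66 ± 0.09 in double mutant against dis-3(L75Q) worms (edgeR adjusted p = 0.0045). In dis-3(L75Q) against wild-type worms 1 of the 19 fell, sqrd-1, a sulfide quinone oxidoreductase gene at 0, 0.131 and 0.392 CPM in dis-3(L75Q) worms and 3.99, 3.07 and 5.08 CPM in wild-type worms (edgeR adjusted p = 0.0079). Double mutant against eat-2(ad1116) worms had 0 called (3 at an unadjusted p under 0.05), and double mutant against wild-type worms had 2, both lower: cth-2 and sqrd-1.

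Of 31 tested ABC transporter genes of the types that export conjugates, 2 or fewer moved in each pair of a mutant with its single-allele control. hmt-1, which encodes a half-transporter that protects against heavy metals, was far lower in dis-3(L75Q) worms than in the other genotypes. It had 74.7, 71.0 and 68.3 CPM in double mutant worms, 9.96, 8.57 and 9.43 CPM in dis-3(L75Q) worms, 64.2, 69.4 and 69.5 CPM in eat-2(ad1116) worms and 89.8, 89 and 83.9 CPM in wild-type worms. The interaction was 3.31 ± 0.12 on the log2 scale (edgeR adjusted p = 4.1e-07), the single transporter called there. The P-glycoprotein gene pgp-1 rose with dis-3(L75Q) in both backgrounds, as gst-28 fell: it averaged 110 ± 4.1 CPM in double mutant, 102 ± 8.3 in dis-3(L75Q) worms, 42.4 ± 5.7 in eat-2(ad1116) and 42.6 ± 9.4 in wild-type worms (SD, n = 3 each; edgeR adjusted p = 0.0036 without and 0.0025 with eat-2(ad1116) in both groups). In eat-2(ad1116) against wild-type worms hmt-1 fell and pgp-11 rose. pgp-1 rose and pgp-5 and pgp-6 fell in double mutant against wild-type worms.

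SKN-1 itself and its regulators showed few differences in RNA. skn-1 averaged 36.6 ± 5.8 CPM in double mutant, 40.0 ± 5.6 in dis-3(L75Q) worms, 44.3 ± 2.6 in eat-2(ad1116) and 39.2 ± 0.78 in wild-type worms (SD, n = 3 each) and passed no test. wdr-23, whose product targets SKN-1 for degradation, averaged 47.2 ± 1.9, 44.7 ± 0.75, 49.2 ± 1.4 and 45.7 ± 5.6 CPM in double mutant, dis-3(L75Q), eat-2(ad1116) and wild-type worms and passed no test either. Of the 20 genes of this list, 1 was called in any comparison: daf-2, the insulin receptor gene, higher in eat-2(ad1116) than in wild-type worms (log2 fold change 0.66 ± 0.17, edgeR adjusted p = 0.045). RNA levels do not report the activity of these proteins.

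Other genes known as SKN-1 targets moved both ways. Of 24 tested, 1 rose and 4 fell in eat-2(ad1116) against wild-type worms, 1 rose and 2 fell in double mutant against dis-3(L75Q) worms, and 1 rose and 3 fell in double mutant against wild-type worms. The other comparisons had 0 called in edgeR, with 7 at an unadjusted p under 0.05 in dis-3(L75Q) against wild-type worms, 2 in double mutant against eat-2(ad1116) worms and 2 for the interaction. lys-7, a lysozyme gene better known from immunity and DAF-16, averaged 237 ± 33 CPM in double mutant, 59.5 ± 4.8 in dis-3(L75Q) worms, 214 ± 6.7 in eat-2(ad1116) and 51.2 ± 5.8 in wild-type worms, and rose with eat-2(ad1116) in both backgrounds (edgeR adjusted p = 2.4e-05 with and 1.4e-05 without dis-3(L75Q)). gpdh-1, a glycerol-3-phosphate dehydrogenase gene of the osmotic response, fell in both, at 10.3 ± 1.2, 24.2 ± 5.8, 10.8 ± 1.7 and 26.9 ± 4.2 CPM in double mutant, dis-3(L75Q), eat-2(ad1116) and wild-type worms. dod-24, a CUB-like immune gene, also fell in both, at 10.2 ± 2.4, 123 ± 26, 11.4 ± 1.0 and 48.1 ± 25 CPM in the same order of genotypes.

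The parallel thioredoxin system had 12 tested genes, of which 1, sesn-1, a sestrin gene, fell in eat-2(ad1116) against wild-type worms (log2 fold change -0.41 ± 0.11, edgeR adjusted p = 0.046). In the other comparisons 0 were called (edgeR), with 4 at an unadjusted p under 0.05 in double mutant against dis-3(L75Q) worms, 2 in dis-3(L75Q) against wild-type worms, 0 in double mutant against eat-2(ad1116) worms, 4 in double mutant against wild-type worms and 0 for the interaction.

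Some markers of other tissues differed in eat-2(ad1116) against wild-type worms, where gst-4 and gst-10 differed. Of all tested genes 6.21% were called in this comparison, and 26.9% had an unadjusted p under 0.05 (edgeR). Of 14 neuronal markers 5 rose in eat-2(ad1116) against wild-type worms, with a summed level of 303 to 460 CPM in eat-2(ad1116) and 243 to 308 CPM in wild-type worms. Of 14 pharyngeal markers 1 rose, with 968 to 2220 CPM in eat-2(ad1116) and 886 to 1100 CPM in wild-type worms. Of the 6 yolk protein genes 3 fell, with 114 to 1320 CPM in eat-2(ad1116) and 2280 to 5850 CPM in wild-type worms. Intestinal markers had 0 of 19 called (edgeR, 4 at an unadjusted p under 0.05), with 5460 to 8210 CPM in eat-2(ad1116) and 6960 to 7830 CPM in wild-type worms. The 14 muscle and 19 sperm markers had 0 called (edgeR, 0 and 5 at an unadjusted p under 0.05), and 1 of 13 hypodermal markers rose. The hypodermal list differed by measure: its median log2 fold change was 0.62, while its summed level was lower, at 2530 to 2710 CPM in eat-2(ad1116) and 3000 to 3480 CPM in wild-type worms. Between double mutant and dis-3(L75Q) worms, where gst-4 and gst-10 were also lower, 0 genes of any of these 7 marker lists were called (edgeR, unadjusted p under 0.05 for 4 yolk, 3 pharyngeal, 3 intestinal, 1 neuronal, 1 hypodermal, 1 muscle and 0 sperm genes). The summed yolk level was 448 to 818 CPM in double mutant and 893 to 3550 CPM in dis-3(L75Q) worms. All marker genes found in the files were above 0. Their part in the members' differences was not tested. With the stage score as a covariate gst-4 kept a log2 fold change of -1.72 and gst-10 one of -1.56 in eat-2(ad1116) against wild-type worms (edgeR adjusted p = 0.00019 and 2.7e-06).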

How the data were processed

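Each deposited file lists an expected count for every gene, per the file headers, an RSEM estimate that can be fractional. Per the submitters' processing notes, the authors used STAR 2.7.0e, RSEM 1.3.1 and the builds WBcel235 and ce11. Annotation, trimming, RNA selection and strand setting are not stated there. Counts were rounded and matched to the Ensembl release 115 annotation of WBcel235 (46924 of 46934 entries). Coordinates are 1-based.

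Genes were tested in edgeR 4.0.16 (R 4.3.3) with TMM scaling (factors 0.9282 to 1.139), filterByExpr by genotype, and a robust quasi-likelihood fit of all 12 libraries with genotype as the one term. Benjamini-Hochberg adjustment ran over 16259 genes, and genes were called at an adjusted p under 0.05. All p-values are two-sided, and ± after a log2 fold change is its SE. The script was tested on simulated data. Library totals ran from 31812427 to 32773835 counts.

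Members and lists were chosen with earlier results of these data known. Values in every library are given for every member called, gcs-1, gst-4 and the 5 members highest per kilobase of exon. In each other list up to 3 called genes with the smallest p were to be named, with means, library values or fold changes. A rule for naming close paralogs needed protein sequences, which were not used here. Alternatives were other scalings, filters and tests (DESeq2 1.42.0, limma-voom in limma 3.58.1), subsets of libraries, a replicate block and the stage score as a covariate. Figures used matplotlib 3.10.9 (Python 3.11.15).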

Additional observations from a re-analysis of the deposited data

How the results depend on the processing

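gst-4 and gst-10 were called under all 22 alternatives in the 3 comparisons that name them (adjusted p up to 0.011 and 0.031), and no called value reversed. In eat-2(ad1116) against wild-type worms the 3 calls became 6 with DESeq2, 5 with the stage covariate and 23 without the 3 libraries that lay apart. In double mutant against dis-3(L75Q) worms the 4 became 20 without those libraries and 2 at an adjusted p under 0.01 (82 of all genes). In dis-3(L75Q) against wild-type worms the 1 became 6 with DESeq2, 2 each with no filter, a stricter filter and no scaling, 0 with just the 6 libraries compared and 27 without the 3 libraries. Of all genes, 96, 97 and 93 were called with no filter, a stricter filter and no scaling, and 30 with just the 6 libraries. In double mutant against eat-2(ad1116) worms the 1 became 2 with DESeq2 and with the stage covariate, 0 with just the 6 libraries (31 of all genes) and 9 without the 3. In double mutant against wild-type worms the 6 became 21 without the 3 and 3 at an adjusted p under 0.01 (212 of all genes). The interaction had 21 without the 3 and 0 under the other alternatives that leave out no single library. DESeq2 called 2280 genes in all in eat-2(ad1116) against wild-type worms and edgeR 1009.

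With each library left out in turn, calls were 2 to 13 in eat-2(ad1116) against wild-type worms and 0 to 7 for the interaction, both highest without the first eat-2(ad1116) library, where 6163 and 2215 of all genes were called. They were 1 to 5 in dis-3(L75Q) against wild-type worms (5 without the second wild-type library, with 1303 of all genes). In double mutant worms they were 2 to 5 against dis-3(L75Q) and 1 to 2 against eat-2(ad1116). Both were highest without the first eat-2(ad1116) library, with 340 and 255 of all genes. Against wild-type worms the double mutant had 3 to 6 (3 without the first wild-type library, with 240 of all genes). Deviations from the genotype means were correlated over 0.1 in 7 of 18 pairs of same-numbered libraries (-0.626 to 0.424). This held for 15 of 36 pairs with other numbers (-0.606 to 0.703). The 3 libraries that lay apart on the stage score have different numbers, so these values cannot tell whether same-numbered libraries share a harvest. A replicate block gave 3, 3, 1, 1, 4 and 0 calls among members in eat-2(ad1116) against wild type, double mutant against dis-3(L75Q), dis-3(L75Q) against wild type, double mutant against eat-2(ad1116), double mutant against wild type and the interaction, beside 496 of all genes in the first of these comparisons, 62 in the third, 25 in the fourth and 4 for the interaction. Leaving out scaling moved the median of all genes by 0.117 in double mutant against dis-3(L75Q) worms, and the order of the 5 highest members was the same by coding length except for a tie of gst-27 and gst-1. The 6 untested members had 14 counts or fewer per library and were not compared.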
